A study of Arabidopsis thaliana with 40 samples.

Results

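The 5 genes described here belong to the synthesis of methionine-derived (aliphatic) glucosinolates in Arabidopsis thaliana: BCAT4 (AT3G19710), MAM1 (AT5G23010), HMT3 (AT3G22740), AOP3 (AT4G03050) and AT2G25450. Each is read by 1 probe set, out of 22746 on the array besides controls. The platform annotation names BCAT4, AOP3 and AT2G25450. It lists no gene for the probe sets of MAM1 and HMT3, which carry these names by the choice of the genes alone. The genes were chosen by their log2 signal in these same arrays, which was lower after day 0, so those falls are given as values without a test.

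Total RNA of the shoot apex was measured on 40 ATH1 arrays, 2 for each of 20 combinations of genotype and day. Sampled were the CONSTANS mutant co-2, the FT mutant ft-2, Landsberg erecta (Ler), the LEAFY mutant lfy-12 and wild-type Columbia (Col). All plants had 30 short days of 9 h light and 15 h dark at 21 °C and then went to long days of 16 h light and 8 h dark. Apices were collected 0, 3, 5 and 7 days after that move. It is background knowledge, not a sample label, that co-2 and ft-2 are alleles in Ler, which itself carries the erecta mutation, and that lfy-12 is an allele in Columbia. No arrays of plants held in short days past day 0 were analysed here, so day length, plant age and sampling day cannot be told apart.

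Glucosinolates are sulfur-containing defence compounds of the cabbage family that are cleaved into toxic products when tissue is damaged. In the aliphatic branch, methionine is first lengthened in a cycle of chain elongation, then built into the glucosinolate core, and its side chain is finally modified. BCAT4 is the aminotransferase that starts chain elongation by deaminating methionine, and MAM1 is the methylthioalkylmalate synthase that condenses the resulting keto acid with acetyl-CoA. HMT3 is a homocysteine methyltransferase that makes methionine. AOP3 and AT2G25450, also called GSL-OH, are dioxygenases that act on finished side chains: AOP3 forms hydroxyalkyl glucosinolates and AT2G25450 hydroxylates the butenyl form. Accessions are known to differ at the loci of MAM1 and AOP3, with AOP3 active in leaves of Ler and not of Columbia.

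Levels are on the log2 scale and differ between probe sets for reasons other than transcript number, so no gene's level is set against another's. Array medians lay between 6.91 and 7.07, and replicate arrays correlated at 0.990 to 0.997 over probe sets. As a background level, the highest of 27 probe sets for bacterial transcripts was taken, at 4.73 to 5.17 depending on the array. BCAT4 and MAM1 lay above it on all 40 arrays, HMT3 on 36, AT2G25450 on 35 and AOP3 on 25. For probe sets that separate the Columbia and Ler backgrounds, unlogged signal was expressed as a share of the gap from its own background's level to the other's. This share was 8.61% on lfy-12 day 5 replicate 2, 5.56% on co-2 day 3 replicate 1 and 4.3% on ft-2 day 0 replicate 1. On the other 37 arrays it was -1.04% to 0.598%. The first 3 are called arrays of mixed background below by these values alone, since no label says so, and the cause was not tested. Calls of the 5 genes and of the list genes below that end or appear without these 3 arrays are named beside the result. The labels do not tell whether the 2 replicates are different plants. Errors and p-values therefore cover the spread between these arrays alone, which may be technical, and so few arrays limit the precision. The stem cell signal CLV3, the 1 apex marker of 6 with a probe set listed, was above the controls on 40 of 40 arrays, at 5.23 to 6.47.

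**Figure D1:**
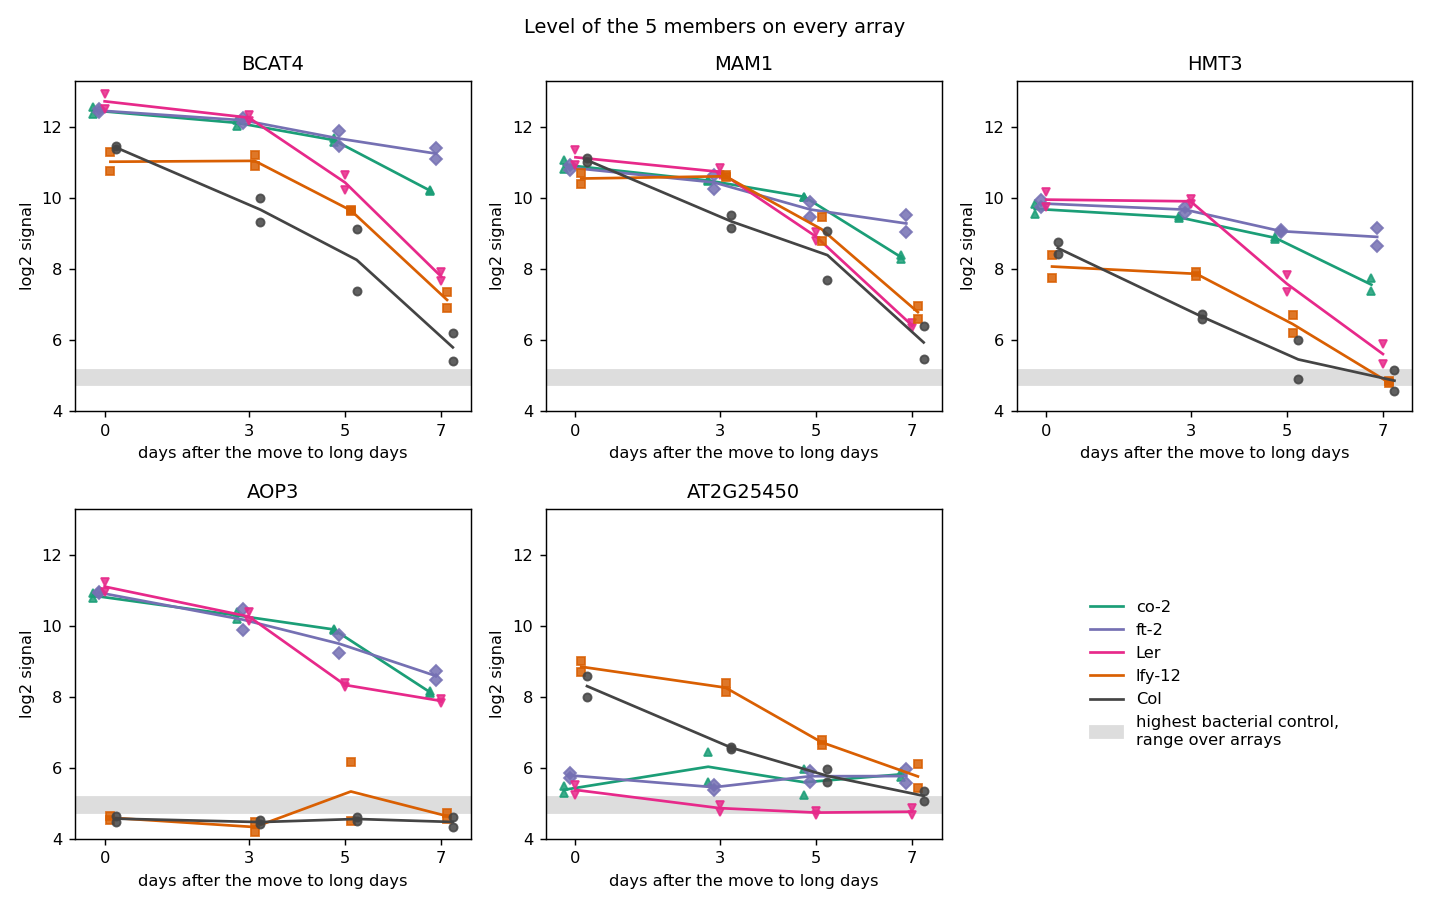
Log2 signal (y axis) of each gene on every array by day (x axis); points are single arrays, lines join the means of 2 arrays, and the grey band is the range of the highest bacterial control. The means of BCAT4, MAM1 and HMT3 are lowest on day 7 in every genotype, with co-2 and ft-2 above Ler, whereas AOP3 is near the band in lfy-12 and Col and AT2G25450 is near it in Ler.

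BCAT4, the entry enzyme of chain elongation, was high on day 0 and lower on each later day in Ler and Col, and stayed closest to its day 0 level in ft-2. In co-2 it stood at 12.37 and 12.57 on day 0, 12.04 and 12.20 on day 3, 11.70 and 11.58 on day 5, and 10.19 and 10.24 on day 7. In ft-2 it stood at 12.43 and 12.51 on day 0, 12.12 and 12.26 on day 3, 11.47 and 11.89 on day 5, and 11.42 and 11.10 on day 7. In Ler it stood at 12.52 and 12.94 on day 0, 12.18 and 12.36 on day 3, 10.24 and 10.64 on day 5, and 7.92 and 7.66 on day 7. The arrays of each mutant overlapped the Ler arrays on day 3 and lay above both of them on days 5 and 7. In lfy-12 BCAT4 stood at 11.29 and 10.77 on day 0, 10.90 and 11.21 on day 3, 9.64 and 9.67 on day 5, and 7.36 and 6.91 on day 7. In Col it stood at 11.38 and 11.48 on day 0, 9.34 and 10.01 on day 3, 9.14 and 7.39 on day 5, and 5.40 and 6.19 on day 7. The Col arrays had thus left the day 0 range by day 3, where the lfy-12 arrays still lay within theirs. Day 7 minus day 0 was -2.25 in co-2, -1.21 in ft-2, -4.94 in Ler, -3.89 in lfy-12 and -5.63 in Col (log2, limma SE 0.32, n = 2 arrays per day), that is 4.77-, 2.32-, 30.7-, 14.9- and 49.5-fold lower. In a bulk sample such as an apex, fewer cells of a type and less RNA per cell cannot be told apart. Over the 20 group means BCAT4 spanned 6.93 log2 units, from Ler day 0 at 12.73 to Col day 7 at 5.80, and in the order of the means 11 of 19 neighbouring groups had overlapping arrays.

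MAM1, which carries out the condensing step of chain elongation, took nearly the same course. In co-2 it stood at 10.82 and 11.06 on day 0, 10.51 and 10.48 on day 3, 10.04 and 10.04 on day 5, and 8.29 and 8.40 on day 7. In ft-2 it stood at 10.79 and 10.94 on day 0, 10.24 and 10.64 on day 3, 9.47 and 9.89 on day 5, and 9.52 and 9.05 on day 7. In Ler it stood at 10.94 and 11.36 on day 0, 10.64 and 10.84 on day 3, 8.80 and 9.04 on day 5, and 6.49 and 6.33 on day 7. On days 5 and 7 all arrays of both mutants lay above the Ler arrays. In lfy-12 MAM1 stood at 10.70 and 10.41 on day 0, 10.59 and 10.65 on day 3, 9.46 and 8.78 on day 5, and 6.97 and 6.60 on day 7. In Col it stood at 11.02 and 11.13 on day 0, 9.16 and 9.53 on day 3, 9.08 and 7.71 on day 5, and 5.47 and 6.40 on day 7. The lfy-12 arrays lay above the Col arrays on days 3 and 7 and overlapped them on day 5. Day 7 minus day 0 was -2.59 in co-2, -1.57 in ft-2, -4.74 in Ler, -3.76 in lfy-12 and -5.14 in Col (log2, SE 0.29). The group means of MAM1 spanned 5.22, from Ler day 0 to Col day 7, and 15 of 19 neighbours in their order overlapped.

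HMT3, which supplies methionine, reached the background level in the Columbia background by day 7. In co-2 it stood at 9.85 and 9.55 on day 0, 9.49 and 9.43 on day 3, 8.91 and 8.85 on day 5, and 7.75 and 7.37 on day 7. In ft-2 it stood at 9.74 and 9.96 on day 0, 9.59 and 9.76 on day 3, 9.04 and 9.10 on day 5, and 9.17 and 8.65 on day 7. In Ler it stood at 9.74 and 10.18 on day 0, 9.85 and 9.97 on day 3, 7.36 and 7.82 on day 5, and 5.90 and 5.32 on day 7. Between days 0 and 3 the Ler arrays overlapped, and from day 5 they lay below all arrays of both mutants on the same day. In lfy-12 HMT3 stood at 8.40 and 7.75 on day 0, 7.80 and 7.93 on day 3, 6.20 and 6.71 on day 5, and 4.78 and 4.83 on day 7. In Col it stood at 8.42 and 8.76 on day 0, 6.59 and 6.73 on day 3, 6.02 and 4.89 on day 5, and 4.57 and 5.15 on day 7. On day 7 no lfy-12 array and 1 of 2 Col arrays lay above the bacterial controls, as did 1 of 2 Col arrays on day 5. Day 7 minus day 0 was -2.14 in co-2, -0.94 in ft-2, -4.35 in Ler, -3.26 in lfy-12 and -3.74 in Col (log2, SE 0.27). Read against the controls, the day 7 level in lfy-12 was at least 8.73-fold lower than on day 0. The group means of HMT3 spanned 5.15, from Ler day 0 to lfy-12 day 7, and 13 of 19 neighbours overlapped.

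AOP3, the dioxygenase of the hydroxyalkyl branch, was measured well above background in the Ler background alone. In co-2 it stood at 10.78 and 10.92 on day 0, 10.18 and 10.40 on day 3, 9.91 and 9.89 on day 5, and 8.10 and 8.16 on day 7. In ft-2 it stood at 10.94 and 10.94 on day 0, 9.87 and 10.47 on day 3, 9.25 and 9.75 on day 5, and 8.72 and 8.47 on day 7. In Ler it stood at 10.96 and 11.25 on day 0, 10.13 and 10.39 on day 3, 8.29 and 8.38 on day 5, and 7.95 and 7.82 on day 7. Both mutants lay above Ler without overlap on days 5 and 7, by the least in co-2 on day 7. Of the 16 arrays of lfy-12 and Col, 1 lay above the bacterial controls, lfy-12 day 5 replicate 2 at 6.17, and the others ranged between 4.19 and 4.72. That array is also the one on which probe sets of the Ler background stood at 8.61%, and the part of this in the AOP3 value was not tested. For AOP3, day 7 minus day 0 was -2.72 in co-2, -2.35 in ft-2 and -3.22 in Ler (log2, SE 0.28), and no difference is given for lfy-12 and Col, where all arrays of both days were at background. The group means of AOP3 spanned 6.77, and 10 of 19 neighbours in their order overlapped.

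AT2G25450, the dioxygenase that hydroxylates butenyl glucosinolate, was high at the start in the Columbia background and low throughout in the Ler background. In co-2 it stood at 5.47 and 5.29 on day 0, 6.45 and 5.61 on day 3, 5.96 and 5.22 on day 5, and 5.89 and 5.74 on day 7. In ft-2 it stood at 5.71 and 5.86 on day 0, 5.53 and 5.38 on day 3, 5.60 and 5.92 on day 5, and 5.57 and 5.97 on day 7. In Ler it stood at 5.53 and 5.23 on day 0, 4.76 and 4.96 on day 3, 4.80 and 4.68 on day 5, and 4.86 and 4.67 on day 7. On days 5 and 7 neither Ler array lay above the bacterial controls. In lfy-12 AT2G25450 stood at 9.00 and 8.69 on day 0, 8.13 and 8.39 on day 3, 6.78 and 6.66 on day 5, and 5.42 and 6.10 on day 7. In Col it stood at 8.01 and 8.59 on day 0, 6.59 and 6.54 on day 3, 5.95 and 5.59 on day 5, and 5.35 and 5.07 on day 7. The lfy-12 arrays lay above the Col arrays on every day. For AT2G25450, day 7 minus day 0 was -3.09 in both lfy-12 and Col (log2, SE 0.25), 0.43 in co-2, -0.02 in ft-2 and -0.61 in Ler, where the day 7 level was at least 1.42-fold lower. The highest co-2 value, day 3 replicate 1 at 6.45, belongs to the array on which probe sets of the Columbia background stood at 5.56%. Day 3 minus day 0 was 0.65 in co-2, and 0.23 without that array.

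The course in time is given beside the end point, with no test of the courses between genotypes. Col had covered 31.1% of its BCAT4 fall to day 7 by day 3, 33.6% of that of MAM1, 51.8% of that of HMT3 and 56.1% of that of AT2G25450. On day 7 in Col, HMT3 (4.57 and 5.15) and AT2G25450 (5.35 and 5.07) were near the bacterial controls. A fall cut short there would raise the share reached by day 3, so the Col shares are not compared between genes. In Ler the share reached by day 3 was 9.33% for BCAT4, 8.66% for MAM1 and 1.09% for HMT3, and by day 5 it was 46.3%, 47.1% and 54.4%. In lfy-12, day 3 minus day 0 was 0.02 for BCAT4, 0.06 for MAM1 and -0.21 for HMT3, and the day 3 arrays of each overlapped those of day 0. AT2G25450 was lower on day 3 than on day 0 in lfy-12 without overlap of arrays, at 8.26 on day 3 and 8.85 on day 0 in the mean. Without lfy-12 day 5 replicate 2, day 5 minus day 0 in lfy-12 was -1.39 for BCAT4, -1.09 for MAM1, -1.87 for HMT3 and -2.07 for AT2G25450, against -1.37, -1.43, -1.62 and -2.13 with it. In co-2 the step between days 5 and 7 held most of the change, at -1.42 for BCAT4, -1.69 for MAM1, -1.32 for HMT3 and -1.76 for AOP3. In ft-2 the same step was -0.42 for BCAT4 and -0.39 for MAM1, and the MAM1 arrays of those days overlapped. AOP3 ran ahead of the chain elongation genes in Ler, with 86.0% of its fall reached by day 5. Leaving out ft-2 day 0 replicate 1 moved the ft-2 falls to day 7 to -1.25 for BCAT4, -1.65 for MAM1, -1.05 for HMT3 and -2.35 for AOP3. On day 7, 4 of the 5 genes lay below day 0 without overlap of arrays in co-2, ft-2, lfy-12 and Col and 5 in Ler, where 20.6%, 21.6%, 27.1%, 24.2% and 22% of all probe sets did so in co-2, ft-2, lfy-12, Col and Ler. Since the falls chose the genes, nothing is read from these counts.

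Between co-2 and Ler on the same day, BCAT4, MAM1 and HMT3 parted after day 3. These comparisons, and the ones that follow, share their arrays with the falls above and are not independent of them. A difference was called where limma's Benjamini-Hochberg adjusted p over all probe sets was under 0.05. None of the 5 was called on day 0 by limma, and 0 had an unadjusted p under 0.05, when 3.71% of all probe sets were called. AT2G25450 alone was called on day 3, where 1.9% of probe sets were called higher. On day 5 all 5 were called higher in co-2, where 6.83% of probe sets were. On that day AOP3 averaged 9.90 ± 0.01 in co-2 and 8.33 ± 0.06 in Ler (SD, n = 2 arrays each), a difference of 1.57 ± 0.28 (SE, limma adjusted p = 0.000418). HMT3 differed by 1.29 ± 0.27 (limma adjusted p = 0.00223), BCAT4 by 1.20 ± 0.32 (limma adjusted p = 0.0165), MAM1 by 1.12 ± 0.29 (limma adjusted p = 0.0138), and AT2G25450 was at least 1.55-fold higher, with measured means of 5.59 in co-2 and 4.74 in Ler (limma adjusted p = 0.0262). On day 7, 4 of 5 were called higher in co-2, where 11% of probe sets were. BCAT4 averaged 10.22 ± 0.04 in co-2 and 7.79 ± 0.18 in Ler (SD, n = 2 arrays each), 5.39-fold higher (log2 2.43 ± 0.32, limma adjusted p = 2.49e-06). MAM1 was 3.82-fold higher (1.93 ± 0.29, limma adjusted p = 1.91e-05) and HMT3 3.88-fold higher (1.95 ± 0.27, limma adjusted p = 4.69e-06). AT2G25450 was at least 1.92-fold higher, with measured means of 5.81 in co-2 and 4.76 in Ler (limma adjusted p = 0.00328). AOP3, at 8.13 ± 0.04 in co-2 and 7.88 ± 0.09 in Ler, differed by 0.25 and was not called (95% interval -0.32 to 0.82, limma adjusted p = 0.598). The calls of day 7 held without any 1 of its arrays, and so did that of AOP3 on day 5. The other day 5 calls were lost without Ler day 5 replicate 1 (BCAT4 0.99, MAM1 1.00, HMT3 1.06, AT2G25450 0.91), those of BCAT4 and MAM1 also without either co-2 array (1.14 and 1.26 for BCAT4, 1.12 and 1.12 for MAM1), and that of AT2G25450 without co-2 replicate 1 (0.49) or Ler replicate 2 (0.80) and in the fit of only the genotypes compared (limma adjusted p = 0.059). The day 3 difference of AT2G25450, 1.17 (limma adjusted p = 0.00687), was lost without co-2 day 3 replicate 1 (0.74), the array with Columbia-background signal, or Ler day 3 replicate 1 (1.07). Over the 4 days, quantile normalization kept every member call, while the share of all calls that were higher was 79.27%, 62.79%, 71.14% and 65.05% on days 0, 3, 5 and 7 as deposited and 52.4%, 40.39%, 47.96% and 49.29% after it.

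**Figure D2:**
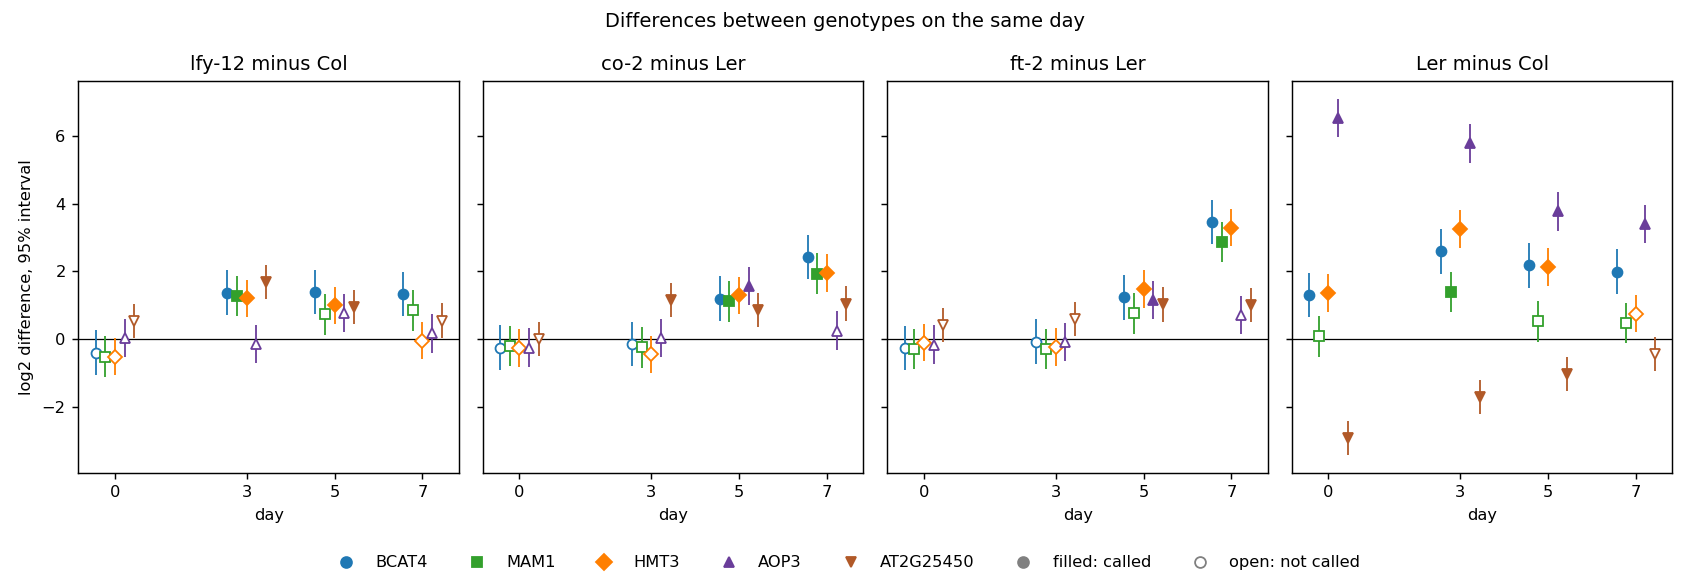
Log2 difference between genotypes on the same day (y axis) against day (x axis), one panel per comparison; points are limma estimates for the 5 genes, bars their 95% intervals, and filled points are called at an adjusted p under 0.05. BCAT4, MAM1 and HMT3 reach 1.93 to 2.43 in co-2 and 2.87 to 3.47 in ft-2 on day 7, and in Ler minus Col AOP3 is highest and AT2G25450 lowest on days 0, 3 and 5.

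Against Ler, ft-2 held the chain elongation genes higher still on day 7. The comparison uses the same Ler arrays as that of co-2, so the values are given side by side with no test between the mutants. By limma none of the 5 genes was called on day 0, when 2.85% of probe sets were called, or on day 3, when 4.7% were, and an unadjusted p was under 0.05 for 0 on day 0 and 1 on day 3. On day 5, 4 of 5 were called higher in ft-2, where 7.87% of probe sets were. HMT3 averaged 9.07 ± 0.04 in ft-2 and 7.59 ± 0.33 in Ler (SD, n = 2 arrays each), a difference of 1.48 ± 0.27 (SE, limma adjusted p = 0.00043). BCAT4 differed by 1.24 ± 0.32 (limma adjusted p = 0.0113) and AOP3 by 1.16 ± 0.28 (limma adjusted p = 0.00596), while AT2G25450 was at least 1.74-fold higher, with measured means of 5.76 in ft-2 and 4.74 in Ler (limma adjusted p = 0.00638). MAM1 differed by 0.76 and was not called (limma adjusted p = 0.0932), but was in the fit of only the genotypes compared (limma adjusted p = 0.0202). On day 7, 4 of 5 were called higher in ft-2, where 12.7% of probe sets were. BCAT4 averaged 11.26 ± 0.23 in ft-2 and 7.79 ± 0.18 in Ler (SD, n = 2 arrays each), 11.1-fold higher (log2 3.47 ± 0.32, limma adjusted p = 3.54e-09). HMT3 was 9.85-fold higher (3.30 ± 0.27, limma adjusted p = 3.13e-10) and MAM1 7.33-fold higher (2.87 ± 0.29, limma adjusted p = 1.95e-08). AT2G25450 was at least 1.85-fold higher, with measured means of 5.77 in ft-2 and 4.76 in Ler (limma adjusted p = 0.00399). AOP3, at 8.59 ± 0.18 in ft-2 and 7.88 ± 0.09 in Ler, differed by 0.71 (95% interval 0.14 to 1.28, limma adjusted p = 0.0725), and was called without the 3 arrays of mixed background (limma adjusted p = 0.0029) and in the fit of only the genotypes compared (limma adjusted p = 0.0162). The day 7 calls of BCAT4, HMT3 and MAM1 and the day 5 call of HMT3 held without any 1 array. The day 5 calls of BCAT4 and AOP3 were lost without ft-2 day 5 replicate 2 (1.03 and 0.91) or Ler day 5 replicate 1 (1.04 and 1.12), and that of AT2G25450 without ft-2 day 5 replicate 2 (0.87) or Ler day 5 replicate 2 (0.97). On day 7 AT2G25450 was lost without ft-2 day 7 replicate 2 (0.80) or Ler day 7 replicate 2 (0.91). Of all calls, 74.27%, 65.33%, 69.48% and 64.15% were higher on days 0, 3, 5 and 7 as deposited, and 48.65%, 40.44%, 47.55% and 48.23% after quantile normalization.

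Between the accessions the signals of the 2 side-chain genes ran in opposite directions, and that of BCAT4 was higher in Ler on all 4 days. Effects of sequence differences between the accessions on these probe sets were not tested, so the folds are folds of signal. On day 0, 3 genes were called higher in Ler, where 8.59% of probe sets were, and 1 lower, where 13.4% were. AOP3 averaged 11.11 ± 0.20 in Ler and 4.57 ± 0.12 in Col on day 0 (SD, n = 2 arrays each), at least 80.6-fold higher (limma adjusted p = 2.55e-16). It was at least 39.1-fold higher on day 3, 10.3-fold on day 5 and 8.61-fold on day 7 (limma adjusted p = 3.83e-15, 2.59e-11 and 1.84e-10), with measured means of 10.26, 8.33 and 7.88 in Ler and 4.47, 4.56 and 4.47 in Col. AT2G25450 averaged 5.38 ± 0.21 in Ler and 8.30 ± 0.41 in Col on day 0, 7.59-fold lower in Ler (log2 -2.92 ± 0.25, limma adjusted p = 3.9e-10). It was still called lower on day 3 (-1.70) and on day 5, when Ler was at background and the level in Ler was at least 1.75-fold lower (limma adjusted p = 0.00281). That day 5 call was lost without Col day 5 replicate 1 (-0.85). BCAT4 was higher in Ler by 1.30 on day 0, 2.59 on day 3, 2.18 on day 5 and 1.99 on day 7 (limma adjusted p = 0.00349, 4.91e-07, 8.19e-06 and 2.94e-05). Its day 5 difference was 3.05 without Col day 5 replicate 1 and 1.30 without replicate 2, and the call held in both. HMT3 was higher in Ler by 1.36 on day 0, 3.25 on day 3 and 2.14 on day 5 (limma adjusted p = 0.000364, 2.66e-10 and 6.92e-07), and on day 7 stood at 5.61 in Ler and 4.86 in Col (limma adjusted p = 0.0532), a difference that was called without Col day 7 replicate 2 (1.04) or Ler day 7 replicate 2 (1.04). MAM1 was called on day 3 alone, at 10.74 ± 0.14 in Ler and 9.34 ± 0.26 in Col (1.40 ± 0.29, limma adjusted p = 0.00076), and without Col day 5 replicate 1 also on day 5 (1.21). On day 3, 4 genes were called higher and 1 lower, against 9% and 11.1% of probe sets. The counts were 3 higher and 1 lower on day 5 (8.83% and 10.7% of probe sets) and 2 higher and 0 lower on day 7 (6.59% and 11.3%), when 3 had an unadjusted p under 0.05. Of all calls on day 7, 36.92% were higher as deposited and 48.92% after quantile normalization.

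Between lfy-12 and Col the first calls among the genes came on day 3. On day 0 AT2G25450 differed by 0.55 (limma adjusted p = 0.302), and BCAT4, MAM1 and HMT3 differed by -0.40, -0.52 and -0.52 (limma adjusted p = 0.624, 0.441 and 0.386). None was called by limma on day 0, when 1.96% of probe sets were, and 1 had an unadjusted p under 0.05. On day 3, 4 of 5 were called higher in lfy-12, where 0.866% of probe sets were. AT2G25450 averaged 8.26 ± 0.18 in lfy-12 and 6.57 ± 0.04 in Col (SD, n = 2 arrays each), 3.23-fold higher (log2 1.69 ± 0.25, limma adjusted p = 0.000111). BCAT4 was higher by 1.38 ± 0.32 (limma adjusted p = 0.0172), MAM1 by 1.27 ± 0.29 (limma adjusted p = 0.0157) and HMT3 by 1.21 ± 0.27 (limma adjusted p = 0.0123). In the fit of only the genotypes compared, the calls of BCAT4 (limma adjusted p = 0.0957) and MAM1 (limma adjusted p = 0.0794) were lost. The day 3 call of AT2G25450 held without any 1 of its arrays. Leaving out any single array ended the calls of MAM1 (1.08 to 1.46) and HMT3 (1.14 to 1.28), and that of BCAT4 without Col day 3 replicate 1 (1.04) or either lfy-12 array (1.53 and 1.22). On day 5, 3 of 5 were called higher, where 0.761% of probe sets were: BCAT4 by 1.39 (limma adjusted p = 0.0156), HMT3 by 1.00 (limma adjusted p = 0.0443) and AT2G25450 by 0.95 (limma adjusted p = 0.0366). The fit of only the genotypes compared did not call BCAT4 (limma adjusted p = 0.0854) or HMT3 (limma adjusted p = 0.0976), and the fit without an intensity trend did not call HMT3 (limma adjusted p = 0.0552). MAM1, with overlapping arrays, differed by 0.73 and was not called (limma adjusted p = 0.219), but was called without Col day 5 replicate 1 (1.42). AOP3 was called without lfy-12 day 5 replicate 1 (1.62), which leaves the array of mixed background alone. Without Col day 5 replicate 2 BCAT4 differed by 0.52 and HMT3 by 0.44, and neither was called. Without lfy-12 day 5 replicate 2, the array of mixed background, BCAT4 differed by 1.38, HMT3 by 0.75 and AT2G25450 by 1.01, and none was called. These 3 calls were also lost without lfy-12 day 5 replicate 1 (1.41, 1.25 and 0.88), and that of AT2G25450 without either Col array (1.13 and 0.76). On day 7 BCAT4 alone was called, where 0.95% of probe sets were higher, at 7.13 ± 0.32 in lfy-12 and 5.80 ± 0.56 in Col (1.34 ± 0.32, limma adjusted p = 0.0153), and the call was lost without the first replicate of either genotype (0.94 for that of Col, 1.11 for that of lfy-12). The fit of only the genotypes compared did not call it either (limma adjusted p = 0.0909). MAM1 differed by 0.85 on day 7 (limma adjusted p = 0.132) and was called without Col day 7 replicate 2 (1.32). HMT3 was at background in lfy-12 on day 7, at 4.81 against 4.86 in Col, so no fold is given, and AOP3 was at background in both.

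Differences between replicate arrays of one group, which the choice of the genes by their falls did not use, were set side by side as a description. Col day 5 replicate 1 was higher than replicate 2 by 1.75 for BCAT4, 1.38 for MAM1 and 1.12 for HMT3, the largest replicate difference of each gene. Over the 20 groups the sign of the replicate difference of BCAT4 was that of MAM1 in 17, that of HMT3 in 16 and that of AT2G25450 in 9. In the 12 groups of the Ler background, where AOP3 was measured, its sign was that of BCAT4 in 12. In the 8 groups of the Columbia background, the sign of AT2G25450 was that of BCAT4 in 4 (Pearson r 0.18). Sign sharing over all probe sets was not tested. The correlation of these differences with those of BCAT4 was 0.90 for MAM1, 0.79 for HMT3 and 0.05 for AT2G25450 (Pearson r, n = 20 groups, whose 2 genes are read on the same arrays). Without Col day 5 it was 0.81 for MAM1 and 0.67 for HMT3 (n = 19). Over the 12 groups of the Ler background it was 0.87 for MAM1, 0.78 for HMT3 and 0.72 for AOP3, a split chosen after seeing the data. No correlation is given for AOP3 in lfy-12 and Col, where 15 of 16 arrays were at background.

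**Figure D3:**
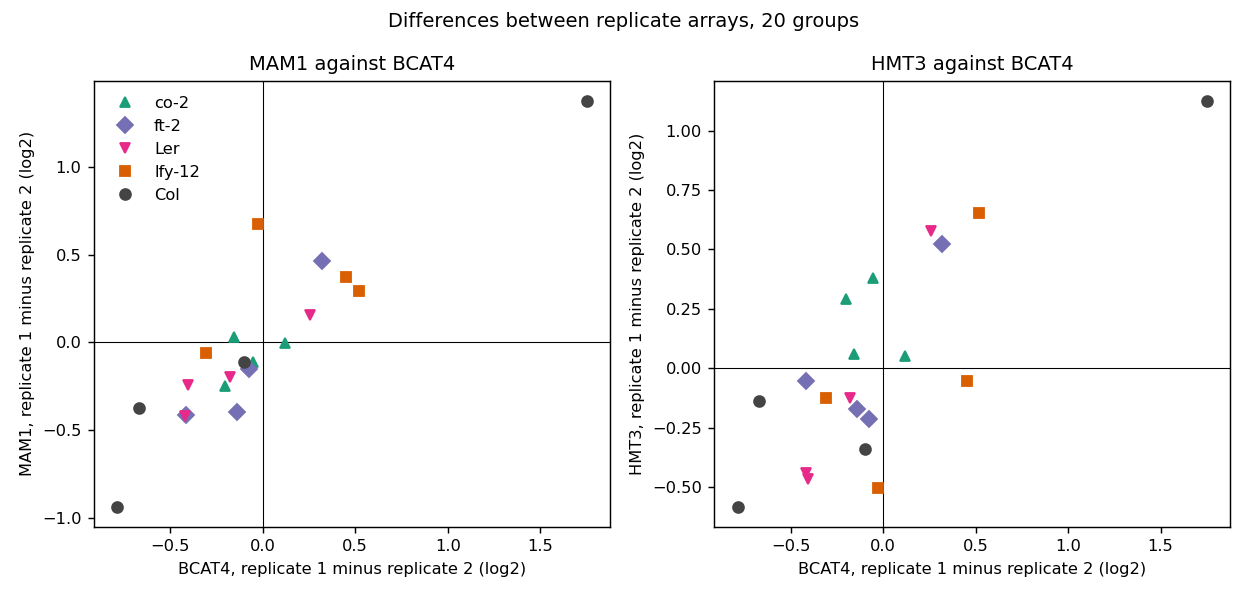
Difference between replicate 1 and replicate 2 of each of the 20 groups (log2) for MAM1 (left) and HMT3 (right) on the y axis against that for BCAT4 on the x axis; each point is 1 group, coloured by genotype. Col day 5 lies at the upper right in both, at 1.75 for BCAT4, and the sign is shared in 17 groups for MAM1 and 16 for HMT3.

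By the correlation of the 20 group means, the genes nearest to BCAT4 among 1844 probe sets that list 1 gene and span at least 1 log2 unit were AT5G38320 (0.979), PYK10, a beta-glucosidase able to cleave glucosinolates (0.976), AT5G12880 (0.976), AT3G05640 (0.975) and AT2G36950 (0.966). For HMT3, among 1845, they were AT4G20460 (0.976), BCAT4 itself (0.973), UGT74C1, a glucosyltransferase of the aliphatic glucosinolate core (0.970), AT5G12880 (0.961) and AT1G73630 (0.959). The probe sets of MAM1 and HMT3 list no gene, so neither was a candidate. Their correlations with BCAT4 were 0.937 for MAM1 and 0.973 for HMT3. The list for MAM1 held the metallothionein MT1C (0.970), AT3G26770 (0.966), the metal transporter ZIP6 (0.961), AT2G46150 (0.950) and AT5G53320 (0.946). For AOP3 it was AT3G47540 (0.968), AT1G12320 (0.967), CSLA03, of the cellulose synthase-like family (0.967), AT4G12890 (0.963) and the tubulin TUB1 (0.961). AT2G25450 had the least close neighbours, with AT1G52100 (0.906), BETA-VPE, a vacuolar processing enzyme (0.905), AT4G16750 (0.869), AT2G43600 (0.863) and AT2G18360 (0.860). For AOP3 and AT2G25450 a correlation over all 20 groups also holds the gap between the backgrounds. With BCAT4, AOP3 stood at 0.68 over the 20 groups and 0.88 over the 12 of the Ler background. AT2G25450 stood at 0.12 over the 20 and 0.93 over the 8 of the Columbia background.

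Other genes of the pathway, and of the methionine, sulfur and breakdown steps around it, were followed from lists of 96 genes besides the 5, of which 18 have a probe set of their own. Of the 4 other measured genes of aliphatic synthesis, day 7 was called lower than day 0 for 4 in co-2, 1 in ft-2, 3 in Ler, 4 in lfy-12 and 4 in Col, against 5.52%, 6.65%, 10.9%, 5.08% and 6.08% of all probe sets. UGT74C1 was called lower in co-2 (-1.13), Ler (-2.09 ± 0.18, limma adjusted p = 4.64e-10), lfy-12 (-0.99) and Col (-1.42), and stood at -0.31 in ft-2, where it was not called (limma adjusted p = 0.313). GSTU20, a glutathione transferase of the pathway, was called lower in Ler (-1.11 ± 0.11, limma adjusted p = 2.77e-09), lfy-12 (-0.64) and Col (-0.78), and stood at -0.35 in co-2, where the call went with any single array (-0.40 to -0.30), and at -0.14 in ft-2. UGT74B1, which glucosylates the core, was called lower in co-2 (-0.72), Ler (-0.86), lfy-12 (-0.42) and Col (-0.57), with the lfy-12 call lost without lfy-12 day 0 replicate 1 (-0.19) or day 7 replicate 2 (-0.30) and the Col call without Col day 0 replicate 2 (-0.50). AOP1, the neighbour of AOP3 in its gene family, was the 1 gene called lower in ft-2 (-0.61) and the 1 not called in Ler (-0.25), and its calls in lfy-12 (-0.53) and Col (-0.57) were lost without lfy-12 day 7 replicate 1 (-0.41) and Col day 7 replicate 1 (-0.38).

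Around the core pathway, transport, breakdown and sulfur genes were called in part. PYK10 was called lower on day 7 than on day 0 in co-2 (-1.41 ± 0.23), Ler (-2.86 ± 0.23), lfy-12 (-2.67 ± 0.23) and Col (-3.26 ± 0.23), and stood at -0.60 in ft-2, where it was not called (limma adjusted p = 0.0864) except in the fit of only the genotypes compared (limma adjusted p = 0.00095). GTR2, a glucosinolate transporter, was called lower in co-2 (-0.96), Ler (-1.39) and Col (-0.71), the last lost without Col day 0 replicate 1 (-0.62) or day 7 replicate 1 (-0.63), whereas GTR1, its close relative, was not called in any genotype (0.02 to 0.17). APS3, an ATP sulfurylase of sulfate assimilation, was called lower in all 5 genotypes (-1.28 in co-2, -0.78 in ft-2, -1.51 in Ler, -0.73 in lfy-12 and -0.79 in Col), with the ft-2 call lost without ft-2 day 0 replicate 2 (-0.57) and the lfy-12 call without lfy-12 day 0 replicate 1 (-0.49) or day 7 replicate 2 (-0.56). Among the genes of methionine and leucine metabolism, MGL, which degrades methionine, was called lower in Ler alone (-1.45). CBL, a step of methionine synthesis, was called lower in Ler (-0.82) and stood below day 0 in co-2 (-0.33), ft-2 (-0.29), lfy-12 (-0.23) and Col (-0.28). The fit of only the genotypes compared also called CBL in ft-2 and Col (limma adjusted p = 0.0475 and 0.0211), and it was called in co-2 without co-2 day 7 replicate 2 (-0.49). By contrast, the aminotransferase BCAT6 was called higher in Ler (0.82), Col (0.55) and lfy-12 (0.33), the last lost without lfy-12 day 0 replicate 1 (0.26) or day 7 replicate 1 (0.26). Of the remaining calls, those of MYC4, a jasmonate-pathway regulator, in ft-2 (-0.37) and Col (-0.48), of its relative MYC3 in co-2 (0.34) and ft-2 (0.41) and of HMT1 in Ler (0.30) were lost without single arrays, among them ft-2 day 0 replicate 2 (-0.39 for MYC4, 0.35 for MYC3), Col day 0 replicate 1 (-0.41), co-2 day 0 replicate 2 (0.24) and Ler day 0 replicate 2 (0.28). Without ft-2 day 0 replicate 1, an array of mixed background, MYC4 was not called in ft-2 (-0.35), and SDI2, of the sulfur list, was called higher there (0.75, against 0.42 with it). BGLU28 was above the controls on 2 of 40 arrays, both of Col day 7 (5.36 and 5.14), and was called higher there than on day 0 (4.53 and 4.73, limma adjusted p = 0.000336). Of the 18, 7 were called lower and 1 higher in co-2, 3 and 1 in ft-2, 8 and 2 in Ler, 6 and 1 in lfy-12, and 8 and 2 in Col, where 3.6%, 5.25%, 11.8%, 7.74% and 7.15% of all probe sets were called higher. In ft-2 they were 2 lower and 2 higher without the 3 arrays of mixed background, and 1 and 0 without ft-2 day 0 replicate 2. In Col 5 were lower without Col day 7 replicate 1. The median of the 18 was -0.29 in co-2, -0.13 in ft-2, -0.28 in Ler, -0.22 in lfy-12 and -0.23 in Col, beside 0.02, 0.04, 0.04, -0.01 and 0.01 over all probe sets. On day 7, 7 of the 18 were called higher and 3 lower in co-2 than in Ler (11% and 5.9% of probe sets), and 10 higher and 2 lower in ft-2 than in Ler (12.7% and 7.1%). Without Ler day 7 replicate 2 the co-2 counts were 4 higher and 1 lower, since GTR2 (0.61), CBL (0.44), BCAT5 (0.13), HMT1 (-0.36) and SDI2 (-0.62) were not called. The lower calls of co-2 numbered 1 without any single array of that comparison, and its higher calls 5 with quantile normalization, which ended those of CBL and BCAT5. In ft-2 leaving out single arrays gave 7 to 9 higher and 1 to 2 lower. UGT74C1 was 1.02 ± 0.18 higher in co-2 (limma adjusted p = 0.000157) and 1.74 ± 0.18 higher in ft-2 (limma adjusted p = 2.92e-08), and GSTU20 0.82 and 1.06 higher (limma adjusted p = 1.69e-06 and 1.35e-08). In lfy-12 against Col on day 7, 0 of the 18 were higher and 2 lower. Of all 22746 probe sets, 727 were called there in either direction, and 216 of these (0.95% of all probe sets) were higher. The 2 were GSTU20 (-0.44) and BGLU28 (-0.42), both lost without any single array (-0.47 to -0.41 and -0.53 to -0.31). BGLU28 was also lost without the 3 arrays of mixed background and from only the genotypes compared. In Ler against Col 5 were higher and 2 lower (6.59% and 11.3% of probe sets).

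**Figure D4:**
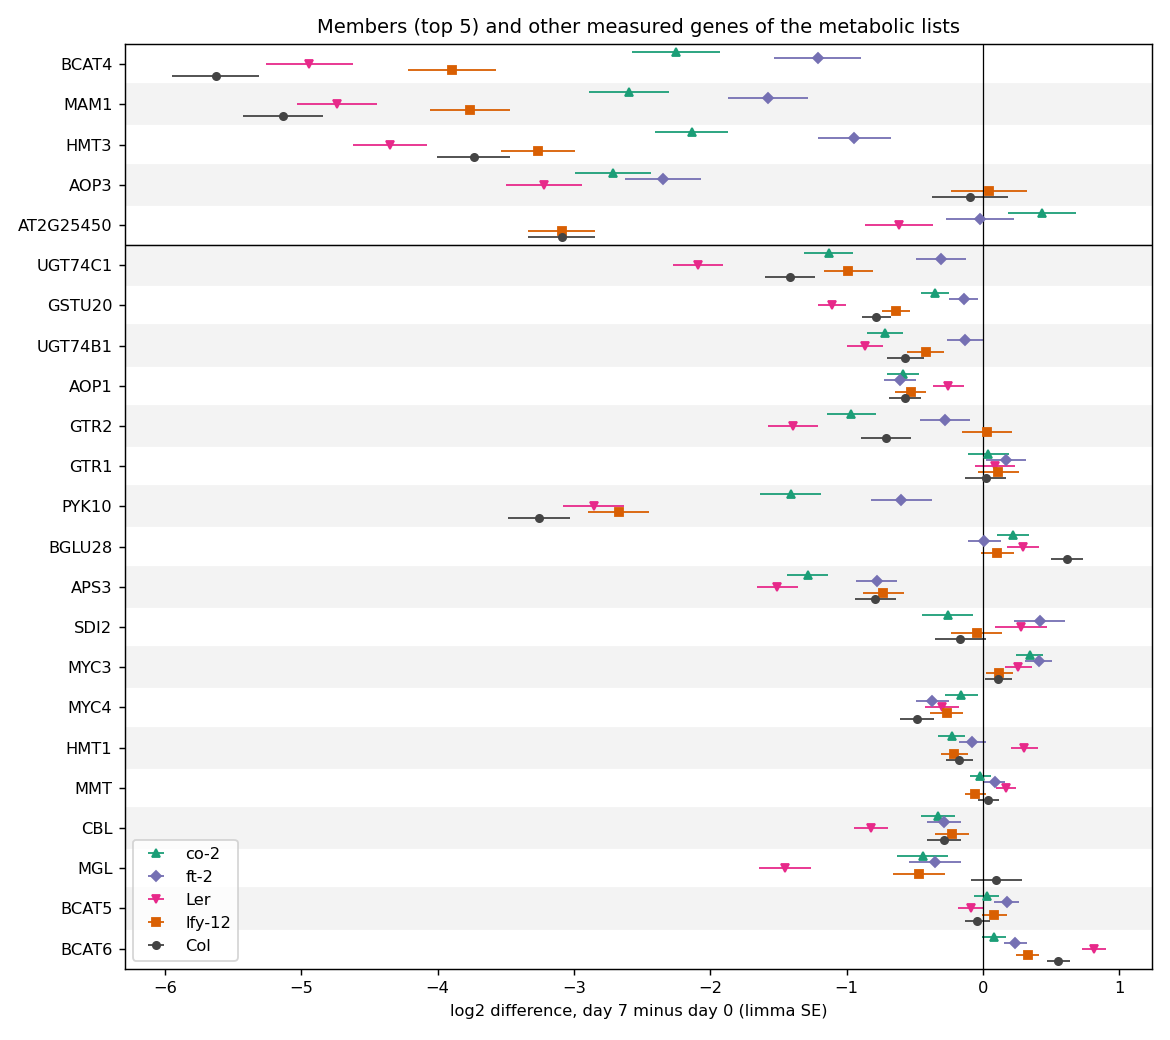
Day 7 minus day 0 (log2, x axis; bars are limma standard errors) for the 5 genes, above the line, and the other 18 measured genes of the lists, below it, with 1 point per genotype. BCAT4 in Col lies farthest left at -5.63, the other genes of aliphatic synthesis lie between -2.09 and -0.13, and ft-2 lies nearest to 0 for BCAT4, MAM1 and HMT3.

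Markers of other tissue in the dissected apex were followed beside the genes. Of 12 leaf markers, RCA, LHCB4.1 and LHCB4.3 were measured, each above the controls on 40 of 40 arrays, and of 6 vascular markers none was measured. The mean of the 3 leaf markers lay between 9.96 and 10.92 over the 40 arrays. It was 10.05 to 10.36 on day 7 and 9.99 to 10.13 on day 0 in co-2, 10.17 to 10.38 and 10.62 to 10.92 in ft-2, 10.33 to 10.60 and 10.04 to 10.87 in Ler, 10.28 to 10.30 and 10.16 to 10.25 in lfy-12, and 10.29 to 10.31 and 9.96 to 10.15 in Col. LHCB4.1, an antenna protein, was called lower on day 7 in ft-2 (-0.43) and Ler (-0.64), and RCA, which activates Rubisco, in the same genotypes (-1.31 and -0.94). The Ler values came largely from Ler day 0 replicate 1, without which RCA stood at -0.17 and was not called and LHCB4.1 was called at -0.39. The fit of only the genotypes compared did not call RCA in Ler (limma adjusted p = 0.138) and called it lower in lfy-12 (-0.50, limma adjusted p = 0.00278). In ft-2 the calls of both were lost without ft-2 day 0 replicate 2 (-1.15 for RCA, -0.38 for LHCB4.1) or day 7 replicate 2 (-1.18 and -0.39). By contrast, LHCB4.3 was called higher in co-2 (0.59), Ler (1.61), lfy-12 (0.94) and Col (1.43), the co-2 call being lost without co-2 day 0 replicate 2 (0.52) or day 7 replicate 1 (0.43). Between genotypes on day 7, LHCB4.1 was called higher than in Ler in co-2 (0.40) and ft-2 (0.36), and LHCB4.3 was called lower than in Ler in both (-1.26 and -1.07), while RCA differed by 0.08 and 0.13 and was not called. The LHCB4.1 calls were lost without Ler day 7 replicate 2 (0.34 in co-2, 0.30 in ft-2), and those of LHCB4.3 held without any single array. In Ler, LHCB4.1 was called lower (-0.36) and LHCB4.3 higher (0.76) than in Col, and lfy-12 and Col had no call among the 3 (-0.27 to 0.24). These marker values under single arrays were computed after seeing the data. The part of leaf tissue in the levels of the 5 genes was not tested.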

How the data were processed

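The authors deposited a single table with a column per array (40 ATH1 arrays), which the sample titles tie to genotype, day and replicate. How the authors normalized it, and in which unit, is not given in the sources used here. Its deposited values were taken as log2 signal, since the natural antilog of the highest, 834443, would exceed the 65535 of a 16-bit scanner, and were used without a pseudocount. Of 22810 probe sets, 64 controls were left out.

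All comparisons came from 1 limma fit (version 3.58.1, R 4.3.3) with a mean for each of 20 groups, 20 residual degrees of freedom over the 40 arrays, contrasts, empirical Bayes moderation with an intensity trend, two-sided tests and Benjamini-Hochberg adjustment over 22746 probe sets within each contrast. The steps were tested on simulated data. With 2 arrays a side, the smallest p of an exact permutation test is 0.333. A gene whose arrays of a group were all at or below the highest bacterial control was given as "at least" a fold against that control, a rule chosen after seeing the data.

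The 5 genes, the lists and the tests were chosen with earlier results of these data known. The rule names the 5 genes, measured list genes and, for each of the 5, the 5 genes most like it. Names came from the platform's list joined to RefSeq names. Of the tested probe sets 13513 list 1 gene, 503 several and 8730 none. Shared replicate numbers were not used to pair the arrays. Over 190 pairs of groups the correlation of same-numbered deviations lay between -0.50 and 0.40, with a median of 0.01 and 52 pairs above 0.1. It was 0.40 for lfy-12 minus Col and 0.34 for Ler minus Col on day 0. For co-2 minus Ler it was 0.38 on day 3 and 0.33 on day 7. Pairing in single comparisons is therefore not excluded. The share of the other background was the median over 8 probe sets (Columbia background arrays) or 24 (Ler background arrays) that differed by more than 3 log2 units between backgrounds. Alternatives were quantile normalization, no intensity trend, a filter on low values (highest group mean under 6), only the genotypes compared, the replicate number as a block, no arrays of mixed background, and each array left out. A planned search of promoter motifs was not run.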

Additional observations from a re-analysis of the deposited data

Results flagged for a closer look

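The change between days 0 and 7 of the 18 other measured genes of the lists was compared between genotypes. Among them limma called 15 differences in response (adjusted over all probe sets, SE in parentheses), none of them between lfy-12 and Col. Of all 22746 probe sets, 1227 were called for co-2 against Ler, 1631 for ft-2 against Ler, 398 for Ler against Col and 51 for lfy-12 against Col. Day 7 minus day 0 was less negative in co-2 than in Ler for PYK10 by 1.45 (0.32), MGL by 1.01 (0.27), UGT74C1 by 0.96 (0.26) and GSTU20 by 0.76 (0.15). It differed, co-2 minus Ler, by -0.53 (0.14) for HMT1, a homocysteine methyltransferase, and by -0.74 (0.12) for BCAT6. In ft-2 it was less negative than in Ler for PYK10 by 2.26 (0.32), UGT74C1 by 1.78 (0.26), GTR2 by 1.12 (0.26), MGL by 1.11 (0.27), GSTU20 by 0.97 (0.15), UGT74B1 by 0.74 (0.19) and APS3 by 0.73 (0.21). For BCAT6 it differed, ft-2 minus Ler, by -0.58 (0.12). Both mutants were compared with the same Ler arrays. Between Ler and Col the response of MGL differed by -1.55 (0.27). Under the alternatives, a check added after seeing the data, the calls of PYK10, GSTU20 and BCAT6 in both mutants, of UGT74C1 and GTR2 in ft-2 and of MGL between Ler and Col held, also without any single array. Without the 3 arrays of mixed background MGL (0.93) and APS3 (0.53) were not called in ft-2. The calls of UGT74C1, MGL and HMT1 in co-2 and of UGT74B1, MGL and APS3 in ft-2 were lost without single arrays (0.79 to 0.91, 0.72 to 0.92, -0.47 to -0.45, 0.63 to 0.69, 0.81 to 1.02 and 0.50 to 0.76 where lost). Groups of 2 arrays were too small for an outlier test.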

How the results depend on the processing

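Of the 80 differences between genotypes tested for the 5 genes, quantile normalization and the replicate block kept the side of the threshold for 80, the fit without an intensity trend and the filter on low values for 79, the fit without the 3 arrays of mixed background for 75 and the fit of only the genotypes compared for 72. With the replicate number as a block the calls were 10 for co-2 and 8 for ft-2 against Ler, 15 for Ler against Col and 8 for lfy-12 against Col, the same counts as without it, and among the list genes the block ended the call of MYC4 in ft-2 on day 7 against day 0 (-0.37, limma adjusted p = 0.0516). The count for lfy-12 against Col was 3 from only the genotypes compared, 5 without the 3 arrays, and 4 to 9 with single arrays left out. With single arrays left out it was 6 to 10 for co-2 and 5 to 8 for ft-2 against Ler, lowest without Ler day 5 replicate 1 and without ft-2 day 5 replicate 2, and 15 to 16 for Ler against Col. GTR2 in lfy-12 stood at 0.03 on day 7 against day 0, but at -0.49 (limma adjusted p = 0.0306) without lfy-12 day 0 replicate 2 and at 0.55 (limma adjusted p = 0.0108) without replicate 1. The cause of these changes was not tested, beyond the smaller number of arrays. Over all probe sets, calls for co-2 against Ler numbered 844 on day 0 (542 with quantile normalization, 184 from only the genotypes compared), 688 on day 3 (282 from only the genotypes compared, 289 without the 3 arrays) and 2183 on day 5 (1362 from only the genotypes compared). For ft-2 against Ler they numbered 649 on day 0 (335 from only the genotypes compared, 273 without the 3 arrays) and 1070 on day 3 (701 from only the genotypes compared), and for lfy-12 against Col 521 on day 5 (261 without the 3 arrays). With single arrays left out, the lowest count was 144 (lfy-12 against Col, day 0, 446 with all arrays), and ft-2 against Ler on day 7 had 2794 to 2953 calls, against 4502 with all arrays. Crossing the replicate numbers, a choice made after seeing the data, gave 5298 calls for Ler minus Col on day 7, 4 for ft-2 minus Ler on day 0, 2156 for ft-2 day 3 minus day 0 and 43 for Ler day 3 minus day 0, against 3465, 0, 51 and 127 with the same numbers joined. Signal near the bacterial controls limits AOP3 in lfy-12 and Col, AT2G25450 in Ler and HMT3 on day 7 in lfy-12 and Col.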
